A study of Mus musculus with 16 samples.

Results

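Room temperature was compared with thermoneutral housing within the cell clusters of mouse brown adipose tissue, 49935 of the 109723 cells and 8 of the 16 libraries of the study. The libraries were taken by the library label that each cell carries, and this label went against the sample labels in 0 cells. Room temperature (RT) has 4 libraries with 22219 cells and thermoneutral housing (TN) has 4 with 27716. All mice were of the C57BL6J strain. RT mice were housed at 22 °C and TN mice at 30 °C. The sample protocol gives 1 week for RT, and the series design gives 1 week for TN. The cells are the stromal vascular fraction of interscapular brown fat, from which the adipocyte layer, red blood cells and dead cells were removed before droplet sequencing of RNA 3' ends. The sources used here give no age, sex or number of animals behind a library, so the p-values measure the spread between these libraries, which may be technical. No mutation, transgene or sorting step is named in the labels.

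Brown adipose tissue burns fuel to make heat, and cold drives it through its sympathetic nerves. At thermoneutrality a mouse needs no extra heat to hold its temperature, while ordinary room temperature is already a mild cold load for it. The stromal vascular fraction holds the cells around the fat cells, among them vessel wall, endothelial, nerve sheath and progenitor cells, and progenitors are known to divide when the tissue is recruited by cold. A phase score sums, for each cell, the expression of genes that are active in DNA synthesis (S score) or before and during mitosis (G2M score) against control genes, and a phase call (G1, S or G2M) is made from both scores. The mitochondrial share is the percentage of a cell's UMIs, its counted RNA molecules, that come from the mitochondrial genome. It is a usual measure of cell quality and also differs between cell types.

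The deposited tables hold values per cell and no gene values were analysed here, so no label could be checked against marker genes. A table of all cells gives 19 coarse clusters, from a graph clustering at resolution 0.1, and a table of named cells gives 28 named clusters for 15240 of the RT and TN cells. Coarse clusters were described by the deposited names of their cells. Cluster 2 (10018 cells) was VSM, read from the series title as vascular smooth muscle, in 96.5% of its named cells. Cluster 9 (1124 cells) was AP in 99.5%, cluster 4 (3432 cells) EC in 55.8% and ECAP in 43.8%, and cluster 3 (659 cells) VSM-AP in 89.1% and Adipo in 9.75%, all kept as labels. Clusters 0, 1, 5, 6 and 8 (14811, 8906, 2522, 3011 and 1397 cells) held no named cell and stay numbers. These 9 clusters had at least 20 cells in each of the 8 libraries and were tested; the other 10 were not.

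RT libraries held 2384 to 10000 cells with medians of 1978.5 to 7324 UMIs per cell, and TN libraries held 1715 to 10005 cells with 3142 to 5079 UMIs. The lowest UMI count of a cell was 800 to 809 in 5 libraries, 1031 in RT replicate 3, 1850 in TN replicate 1 and 1921 in TN replicate 3. The median mitochondrial share was 6.01% in RT replicate 4 and 2.99% to 4.45% in the other 7 libraries. At most 28 cell barcodes were shared by a pair of libraries. Medians were 4264 to 7324 UMIs in replicates 1 and 2 and 1978.5 to 3659 in replicates 3 and 4, so differences are also given within each of these pairs of numbers; the labels name no batch. Over all cells of a library, none of 7 measures passed between RT and TN (exact permutation tests, two-sided, p from 0.229 to 0.971). With 4 libraries against 4 the smallest p these tests can give is 0.0286. After adjustment over the 7 measures, 1 measure alone could therefore not pass, even with the groups fully apart.

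The S score was higher at RT in all 9 coarse clusters tested, and in 6 of them, 66.7% of those tested, the difference passed an adjusted p of 0.05 in limma. The clusters that passed were the unnamed clusters 0, 1 and 5, the VSM cluster 2, the VSM-AP cluster 3 and the AP cluster 9. All 4 RT libraries lay above all 4 TN libraries in 5 of the 9 clusters, or 55.6%: clusters 0, 1, 2, 3 and 9. The clusters come from the same 8 libraries, so these are not 9 independent results. The score has no unit, and the sources used here do not say how the authors computed it.

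In cluster 0, which held 29.7% of the RT and TN cells, the mean S score was 0.0180, 0.0160, 0.0132 and 0.0151 in RT replicates 1 to 4 and -0.00739, 0.00110, 0.00145 and -0.00143 in TN replicates 1 to 4. The RT libraries lay close together and above every TN library, of which replicate 1 was the lowest. The difference was 0.0171 ± 0.0041 (SE, limma adjusted p = 0.00476), with 0.0201 within replicates 1 and 2 and 0.0141 among replicates 3 and 4. In cluster 1 the RT libraries read 0.0348, 0.0394, 0.0349 and 0.0411 and the TN libraries 0.00918, 0.0200, 0.0228 and 0.0190. TN replicate 1 was again the lowest, and every RT library lay above every TN library. The difference in cluster 1 was 0.0198 ± 0.0045 (limma adjusted p = 0.00475), and 0.0225 and 0.0171 within the pairs of numbers.

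Cluster 5 had RT values of 0.0522, 0.0370, 0.0353 and 0.0314 and TN values of 0.00928, 0.0327, 0.0228 and 0.0225. Here the groups overlapped, since TN replicate 2 lay above RT replicate 4. The difference was 0.0171 ± 0.0062 (limma adjusted p = 0.0264), 0.0236 within replicates 1 and 2 and 0.0107 among replicates 3 and 4. This call ended without RT replicate 1 or without TN replicate 1, 3 or 4, with differences of 0.0127 to 0.0208 over the libraries left out.

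The VSM cluster 2 is the contractile cell class of the vessel wall, as its label is read. Its mean S score was -0.0556, -0.0489, -0.0412 and -0.0512 in the RT libraries and -0.0745, -0.0800, -0.0653 and -0.0692 in the TN libraries. Every RT library lay above every TN library, and in both groups replicate 3 was the highest. The difference was 0.0230 ± 0.0050 (limma adjusted p = 0.00475), 0.0250 within replicates 1 and 2 and 0.0210 among replicates 3 and 4. The VSM-AP cluster 3 read -0.0238, -0.0210, -0.0263 and -0.0128 at RT and -0.0489, -0.0542, -0.0344 and -0.0319 at TN, a difference of 0.0214 ± 0.0059 (limma adjusted p = 0.00706). It rested on 24 to 164 cells per library, and its within-number differences were 0.0292 and 0.0136. It lost its call when values were weighted by cell number.

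The AP cluster 9 had the largest difference of the 9 clusters tested, 0.030 ± 0.0076 (limma adjusted p = 0.00500). Its RT libraries read -0.0639, -0.0530, -0.0241 and -0.0369 and its TN libraries -0.0790, -0.0770, -0.0720 and -0.0699. The TN libraries lay within a narrow band, while the RT libraries spread over several times that range, with replicates 3 and 4 the highest. The difference was 0.0196 within replicates 1 and 2 and 0.0404 among replicates 3 and 4.

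**Figure D1:**
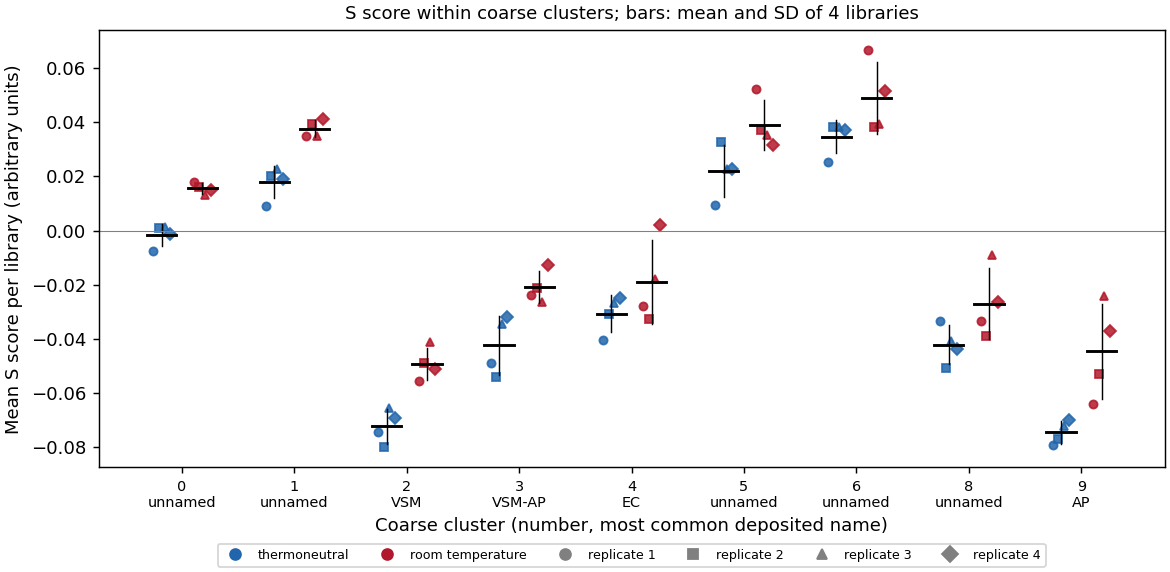
Mean S score (arbitrary units, vertical axis) of the cells of each library in the 9 coarse clusters tested (horizontal axis); each symbol is 1 library, the horizontal bar is the mean of 4 libraries and the vertical line its SD. In clusters 0, 1, 2, 3 and 9 all 4 room temperature libraries lie above all 4 thermoneutral ones.

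The other 3 clusters had estimates in the same direction that did not pass. The EC and ECAP cluster 4 had -0.0280, -0.0328, -0.0179 and 0.00219 at RT and -0.0403, -0.0307, -0.0266 and -0.0250 at TN, a difference of 0.0115 (95% interval -0.00443 to 0.0275, limma adjusted p = 0.140). RT replicate 4, with 71 cells there, stood above the rest and RT replicates 1 and 2 lay among the TN libraries. Clusters 6 and 8 had differences of 0.0143 (limma adjusted p = 0.0579) and 0.0152 (limma adjusted p = 0.0559). With each library set to its own mean over the 9 clusters, 0 of 9 passed and 0 had an unadjusted p below 0.05. The differences then ran from -0.00728 in cluster 4 to 0.0112 in cluster 9 (limma adjusted p of 0.797 or more). Such centring takes out any shift that the clusters share, so differences on both sides of 0 follow by construction.

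Weighting the coarse clusters equally in a library gave a mean S score of -0.00219 ± 0.00400 (SD, n = 4) at RT and -0.0210 ± 0.0044 (n = 4) at TN. All 4 RT libraries lay above all 4 TN libraries (exact permutation p = 0.0286, adjusted over 7 measures 0.10). This is the smallest p the test can give, so the adjusted value could not pass with so few measures apart. Over all cells, where the cluster makeup of a library enters, the means were -0.00124 ± 0.0157 and -0.0154 ± 0.0143 and the groups overlapped (exact permutation p = 0.229). In smaller clusters, drawn at resolution 1.8 as a choice made after seeing the data, the S score was higher at RT in all 14 tested and passed in 13, or 92.9%, by 0.0141 to 0.0317. Clusters with 20 cells in at least 3 libraries of each group were then let in, leaving out the smaller libraries. The S score was higher at RT in 12 of 12 and passed in 10, or 83.3%. This choice also followed a look at the data. With a minimum of 5 cells in every library, chosen likewise, it was higher in 14 of 14 and passed in only 5.

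UMIs per cell overlapped between the groups in these clusters. Among cells with 2000 to 4000 UMIs only clusters 0 and 5 could be tested: the difference was 0.0169 ± 0.0026 in cluster 0 (limma adjusted p = 0.000538) and 0.0203 ± 0.0087 in cluster 5 (limma adjusted p = 0.0519). Among cells with at least 1921 UMIs, the highest minimum of any library, 7 of 8 clusters tested passed. Among cells under 20% mitochondrial UMIs, 5 of 8 passed; cluster 3, where 65.0% to 95.7% of the cells of a library were at 20% or more, could then not be tested. RNA from broken cells also enters such scores, and its part in these differences was not tested.

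For context, the S score of the cold libraries was set beside these values, without a test. In cluster 0 it was 0.0131 ± 0.0036 (SD, n = 4) after 2 days at 5 °C and 0.00670 ± 0.0037 (n = 4) after 7 days, against 0.0156 ± 0.0020 at RT and -0.00157 ± 0.0041 at TN. In the VSM cluster 2 it was -0.0606 ± 0.0067 and -0.0944 ± 0.0126, against -0.0493 ± 0.0060 and -0.0723 ± 0.0064. RT had the highest mean of the 4 conditions in clusters 0, 1, 2, 5, 6, 8 and 9. In cluster 3 the mean after 7 days was higher, -0.00758 ± 0.0194 against -0.0210 at RT. In cluster 4 the mean after 2 days was higher, 0.00410 ± 0.0315 against -0.0191 at RT. A cold library is known to stand apart in quality, and it is included in these means.

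The difference in S score was read across the percentiles of the cells. At the 5th percentile of the cells of each library, the S score was higher at RT in all 9 clusters, by 0.0102 to 0.0299, and the groups did not overlap in 8 of them. At the median it was higher in 9 of 9, by 0.00905 to 0.0265, with no overlap in 6. At the 95th percentile it was higher in 8 of 9 and the groups overlapped in all 9, with a median difference of 0.0156 over the clusters. The exception was cluster 8, at 0.0429 for RT and 0.0621 for TN.

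Few cells had a high S score. In cluster 0 an S score above 0.2 was read in 0.220% ± 0.166 (SD, n = 4) of the RT cells and 0.147% ± 0.147 (n = 4) of the TN cells. In the VSM cluster 2 it was read in 0.0116% ± 0.0233 and 0.0114% ± 0.0228. Cluster 6 had the largest share of such cells, 4.89% ± 2.41 at RT and 5.33% ± 0.90 at TN, and cluster 5 had 0.687% ± 0.901 and 2.29% ± 0.46. These shares were not tested, and in clusters 5 and 6 the RT mean was the lower one. Over the 9 clusters tested for the S score, the RT mean of this share was higher in only 5.

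**Figure D2:**
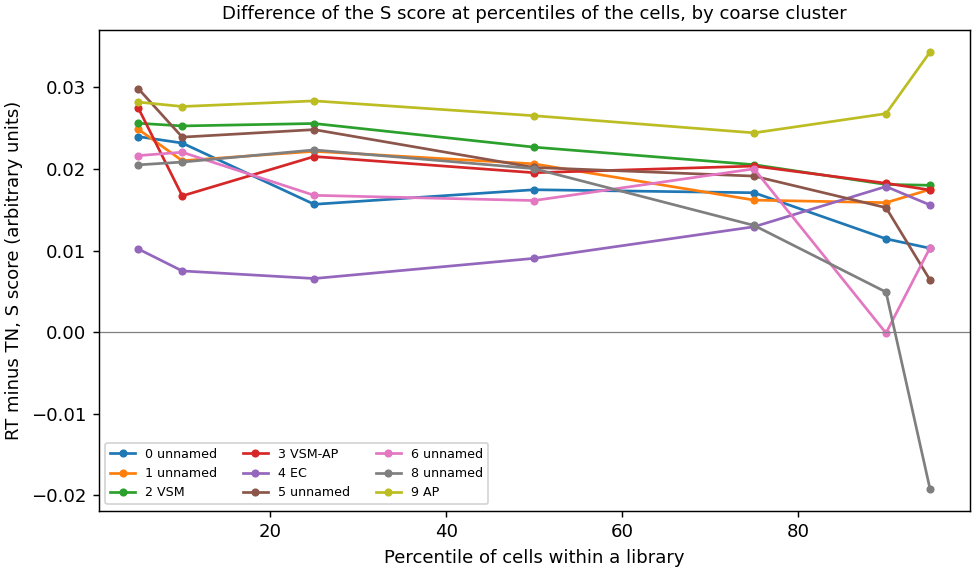
Difference in S score between room temperature and thermoneutral housing (mean of 4 libraries minus mean of 4, arbitrary units, vertical axis) at the 5th to 95th percentile of the cells within a library (horizontal axis); each line is 1 coarse cluster. All 9 lines lie above 0 up to the 75th percentile, and cluster 8 falls to -0.0192 at the 95th.

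Cells called S or G2M made up a larger share at RT in all 9 coarse clusters, and 4 of the 9, or 44.4%, passed in limma on the log2 odds scale: the unnamed clusters 0, 1 and 5 and the AP cluster 9. The groups did not overlap in 3 of the 9, or 33.3%: clusters 0, 1 and 5. The calls are made from the scores above, so they are not a separate measurement, and a phase call alone does not show that a cell is cycling.

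In cluster 1 the share called S or G2M was 91.0%, 90.0%, 84.7% and 89.0% in the RT libraries and 72.3%, 75.7%, 78.7% and 79.9% in the TN libraries. Every RT library lay above every TN library. The odds ratio was 2.40 (log2 1.26 ± 0.31, limma adjusted p = 0.00793), with log2 values of 1.72 within replicates 1 and 2 and 0.80 among replicates 3 and 4. Cluster 0 had 80.6%, 78.2%, 73.3% and 72.3% at RT and 60.3%, 66.5%, 65.5% and 63.9% at TN (odds ratio 1.8, limma adjusted p = 0.0308). The groups were apart in cluster 0 as well. Cluster 5 had 91.6%, 86.6%, 82.4% and 81.6% at RT and 68.6%, 76.3%, 78.8% and 78.9% at TN (odds ratio 1.93, limma adjusted p = 0.0308).

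In the AP cluster 9 the share was far lower, at 10.7%, 13.2%, 26.6% and 16.7% at RT and 5.18%, 12.1%, 5.26% and 10.0% at TN. TN replicate 2, with 33 cells, lay above RT replicate 1. The odds ratio was 2.20 (log2 1.14 ± 0.40, limma adjusted p = 0.0308). The VSM cluster 2 had 5.45%, 8.20%, 16.7% and 6.71% at RT and 3.60%, 3.0%, 8.96% and 6.03% at TN, and its odds ratio of 1.77 did not pass (limma adjusted p = 0.125). Replicate 3 was the highest in both groups there.

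The calls were also read by phase. In cluster 0, 47.7% ± 2.1 (SD, n = 4) of the RT cells and 38.1% ± 3.1 (n = 4) of the TN cells were called S, against 28.4% ± 3.6 and 26.0% ± 0.5 called G2M. In cluster 1 the S shares were 62.2% ± 2.6 and 50.4% ± 2.4 and the G2M shares 26.4% ± 0.8 and 26.2% ± 3.1. The mean S share was higher at RT in 9 of 9 clusters and the mean G2M share in 4 of 9; S and G2M shares were not tested one by one. The 95% Wilson intervals of single libraries had half-widths from 0.783 to 17.1 percentage points, for counting error only.

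The count of 4 changed when single libraries were left out. It was 1 without RT replicate 2 or TN replicate 1, 2 without RT replicate 1 or TN replicate 2 or 4, and 3 without RT replicate 3 or 4 or TN replicate 3. The call of cluster 1 held without each of the 8 libraries.

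**Figure D3:**
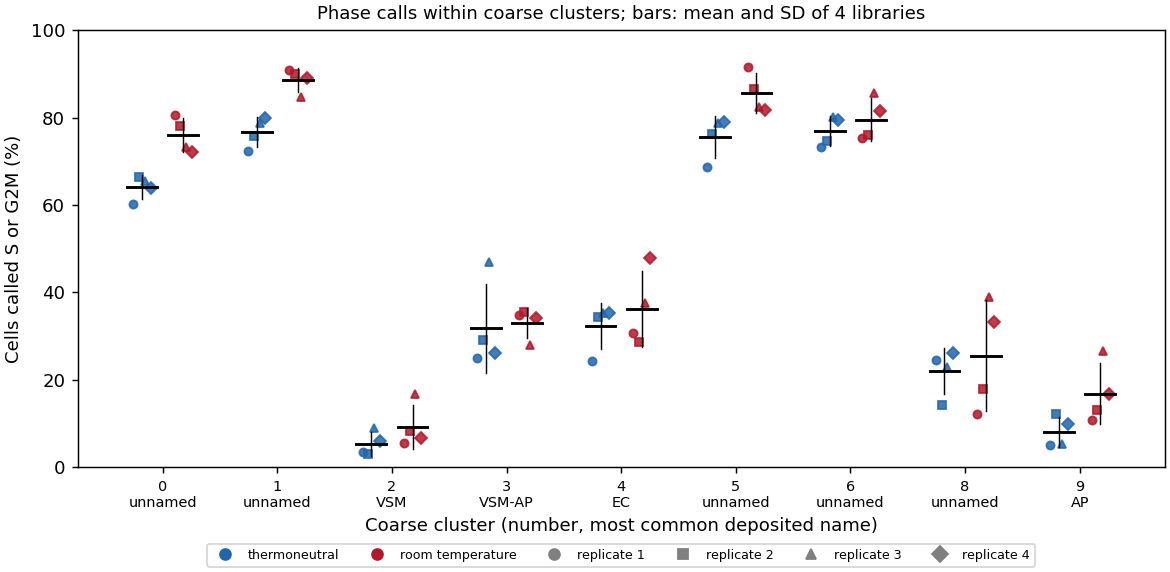
Percentage of the cells of a library called S or G2M (vertical axis, from 0) in each of the 9 coarse clusters tested; symbols are libraries, bars are the mean and SD of 4 libraries. Clusters 0, 1, 5 and 6 lie at 60.3% or above, the VSM cluster 2 at 16.7% or below, and in clusters 0, 1 and 5 the room temperature libraries are all above the thermoneutral ones.

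The G2M score differed in both directions. It was higher at RT in 5 clusters and lower in 4, and limma called 0 of 9, with 2 at an unadjusted p below 0.05. In cluster 1 it was 0.00359, 0.00430, 0.00171 and 0.00375 at RT and -0.0121, -0.00797, -0.00538 and -0.00183 at TN. There all RT libraries lay above all TN libraries, the only such case among the 9 (11.1%). The difference of 0.0101 ± 0.0031 did not pass (limma adjusted p = 0.0848), nor did that of 0.0150 ± 0.0053 in the AP cluster 9 (limma adjusted p = 0.0848). Cluster 1 had the smallest p of the clusters that were higher at RT. The EC and ECAP cluster 4 had the smallest p of those that were lower, at -0.00606 ± 0.0040 (limma adjusted p = 0.307). In clusters 0 and 2 the differences were 0.00872 (95% interval -0.000370 to 0.0178) and 0.00277 (-0.00568 to 0.0112). Without RT replicate 1, RT replicate 2 or TN replicate 4, 1 cluster passed.

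The named clusters give a second view of part of the cells, and in them the scores of the 2 tables differ. The coarse clusters 0, 1, 5, 6 and 8 hold no named cell, so their results have no second score. Each table carries its own S score, G2M score and phase call, and the calls of both tables were equal for 51.3% of the RT and TN cells that have both. Named clusters VSM_0 (1686 cells), VSM_1 (1827 cells) and VSM-AP_6 (853 cells) had 20 cells in every library. With the scores of the table of named cells, 0 of these 3 passed for the S score and 0 for the share called S or G2M, with 0 at an unadjusted p below 0.05 for both. With the scores of the table of all cells for the same cells, 3 of 3 passed for the S score (100%) and 0 of 3 for the share called S or G2M.

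In VSM_0 the S score of the table of named cells was -0.00183, -0.00226, 0.00308 and 0.00175 at RT and -0.00933, -0.0102, -0.00125 and -0.00146 at TN. RT replicates 1 and 2 lay below TN replicates 3 and 4, and the difference was 0.00575 ± 0.0033 (limma adjusted p = 0.152). The score of the table of all cells for those cells was -0.0490, -0.0460, -0.0377 and -0.0489 at RT and -0.0732, -0.0769, -0.0637 and -0.0666 at TN. With that score the groups were apart, by 0.0247 ± 0.0049 (limma adjusted p = 0.000121). VSM_1 gave 0.00577 ± 0.0033 (limma adjusted p = 0.152) with the first score and 0.0253 ± 0.0049 (limma adjusted p = 0.000121) with the second. VSM-AP_6 gave 0.00307 (limma adjusted p = 0.368) and 0.0172 (limma adjusted p = 0.00244). With the first score limma gave every named cluster tested the same SE, 0.0033. With the second the SE was 0.0049 for both VSM_0 and VSM_1. The SD of the TN libraries with the second score was 0.0060 in VSM_0, 0.0069 in VSM_1 and 0.0109 in VSM-AP_6. These p-values thus rest on a spread pooled over clusters of the same libraries, not on each cluster's own spread.

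With clusters let in that had 20 cells in at least 3 libraries of each group, a choice made after seeing the data, 12 named clusters could be tested and libraries under 20 cells were left out of each. With the scores of the table of named cells, 8 were higher and 4 lower at RT, 0 passed as higher and 2 passed as lower (16.7%): ECAP_4 and EC_15. With the scores of the table of all cells, 12 of 12 were higher and 8 passed (66.7%): VSM_0, VSM_1, VSM_2, VSM_3, VSM_7, VSM_20, VSM-AP_6 and AP_9.

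ECAP_4 read 0.0269, 0.0163 and 0.0245 in RT replicates 1 to 3 and 0.0451, 0.0349, 0.0374 and 0.0463 in the TN libraries, with the score of the table of named cells. RT replicate 4 had 6 cells and was left out. All RT libraries lay below all TN libraries, a difference of -0.0183 ± 0.0042 (limma adjusted p = 0.0249). With the other score the same cells read -0.0119, -0.0170 and -0.0124 at RT and -0.0131, -0.0257, -0.0244 and -0.0153 at TN, a difference of 0.00586 ± 0.0046 (limma adjusted p = 0.259). EC_15 gave -0.0137 ± 0.0036 (limma adjusted p = 0.0366) with the score of the table of named cells and 0.0101 ± 0.0048 (limma adjusted p = 0.0828) with that of all cells, without RT replicate 4 (10 cells) and TN replicate 3 (12 cells). For ECAP_4 and EC_15 the direction thus depended on which deposited score was read. What sets the tables' scores apart was not tested.

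**Figure D4:**
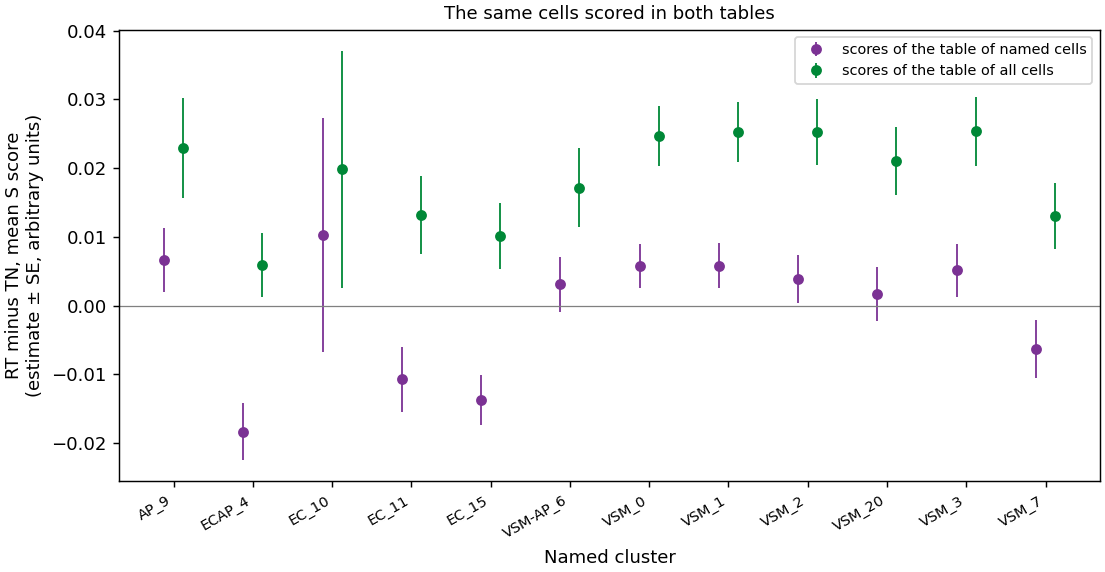
Difference in mean S score between room temperature and thermoneutral housing (limma estimate and SE, arbitrary units, vertical axis) for 12 named clusters, with the scores of the table of named cells and of the table of all cells for the same cells. The scores of all cells give 12 of 12 differences above 0, and those of named cells give 4 below 0, among them ECAP_4 at -0.0183.

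The G2M score and the share called S or G2M showed no called difference in the named clusters. VSM_1 had the smallest p of the 3 for a higher G2M score, at 0.00375 (limma adjusted p = 0.519), VSM_0 had 0.00302 and VSM-AP_6 -0.000226. The share called S or G2M in VSM_1 was 67.6%, 64.2%, 67.8% and 72.5% at RT and 60.4%, 40.7%, 64.5% and 68.1% at TN. The groups overlapped, and the low TN value is that of replicate 2, with 27 cells.

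Depth per cell overlapped between the groups in every cluster tested. Median UMIs were lower at RT in 6 of the 9 coarse clusters and higher in 3 on the log2 scale, and limma called 0 of them, with 0 at an unadjusted p below 0.05. In cluster 0 the medians were 3555, 2829, 1594 and 2338.5 UMIs at RT and 2383, 3777, 2259 and 2238.5 at TN, a ratio of 0.953. Cluster 1 had 5374, 4372.5, 2531.5 and 3442 against 3872, 6036, 2942.5 and 3583, a ratio of 0.955. RT replicate 3 was the lowest library in both clusters. The VSM cluster 2, with 13146, 10080, 5375 and 9890.5 UMIs at RT and 7497, 11484, 5788 and 7391 at TN, had a ratio of 1.18. Cluster 8 had the smallest p, with 4383, 8137, 5164 and 4273.5 against 7465, 11107, 5767 and 7211, a ratio of 0.691 (95% interval of the log2 ratio -1.22 to 0.15, limma adjusted p = 0.895). The 95% intervals over the 9 clusters reached from a ratio of 0.430 to 2.01, so a 2-fold difference is within them. Here limma gave every cluster the same SE, 0.342 on the log2 scale, so the intervals do not follow each cluster's own spread. In cluster 3 the SD of the RT libraries was 1.07.

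RT replicate 4 stood apart in the VSM-AP cluster 3. Its cells there had a median of 9811.5 UMIs, against 1886 to 2669.5 in the other RT libraries and 2104.5 to 3117.5 at TN. The ratio of 1.25 between the groups (limma adjusted p = 0.895) rests on that library: the log2 difference was 0.32 with it and -0.21 without it. In the named clusters the ratios were 1.19 for VSM_0, 1.21 for VSM_1 and 1.06 for VSM-AP_6, and 0 of 3 passed.

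Complexity was read in 2 ways. The deposited ratio of log10 genes to log10 UMIs, which falls as depth rises, did not pass in any of 9 coarse or 3 named clusters (0 at an unadjusted p below 0.05 in both). In cluster 0 its median was 0.887 ± 0.008 (SD, n = 4) at RT and 0.886 ± 0.008 (n = 4) at TN, in cluster 1 it was 0.860 ± 0.005 and 0.858 ± 0.008, and in the VSM cluster 2 it was 0.868 ± 0.011 and 0.874 ± 0.010. Cluster 5 had the smallest p of the higher ones, with a difference of 0.00760 (limma adjusted p = 0.714). Cluster 3 had the smallest p of the lower ones, with 0.853, 0.865, 0.881 and 0.766 at RT and 0.876, 0.872, 0.884 and 0.873 at TN (difference -0.0349, limma adjusted p = 0.714). RT replicate 4 was the low library there and also the deep one. Whether its depth accounts for its low ratio was not tested.

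The second reading took the number of genes at equal UMIs, as the mean residual of log2 genes on log2 UMIs within a cluster. It was lower at RT in 8 of 9 clusters, and 0 of 9 passed. The VSM-AP cluster 3 had the largest difference, with residuals of -0.09, -0.06, 0.11 and -0.28 in the RT libraries and 0.14, 0.07, 0.23 and 0.01 in the TN libraries. RT replicate 3 lay among the TN libraries and RT replicate 4 below all others. The log2 difference was -0.19 (95% interval -0.36 to -0.03) with an unadjusted p of 0.0260, and it did not pass (limma adjusted p = 0.234). It was -0.18 within replicates 1 and 2 and -0.21 among replicates 3 and 4, and it ran from -0.26 to -0.13 with single libraries left out; without RT replicate 3, 1 cluster passed. In clusters 0, 1 and 2 the log2 differences were -0.0032, -0.0028 and -0.015, with 95% intervals inside -0.07 to 0.07. In the named VSM-AP_6 it was -0.10 (limma adjusted p = 0.307).

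The mitochondrial share differed more between clusters than between the housing groups. The mean of the library medians was higher at RT in 8 of 9 coarse clusters, and limma called 0 of them, also 0 by unadjusted p below 0.05. RT replicate 4 had the highest median of the 8 libraries in all 9 clusters tested. In cluster 0 the medians were 3.19%, 2.86%, 3.23% and 6.23% at RT and 3.19%, 3.51%, 3.77% and 4.05% at TN. Apart from RT replicate 4, the RT libraries of that cluster lay below the middle of the TN libraries. The log2 difference of 0.03 was -0.22 without RT replicate 4.

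The VSM cluster 2 had 7.93%, 6.77%, 8.57% and 10.8% at RT and 6.76%, 8.28%, 8.48% and 9.07% at TN, a ratio of 1.04. The VSM-AP cluster 3 had the highest shares and the smallest p, with 37.0%, 32.0%, 27.6% and 48.0% at RT and 22.6%, 26.6%, 21.7% and 32.9% at TN. TN replicate 4 lay above RT replicates 2 and 3, and the other TN libraries lay below all RT libraries. The ratio was 1.38 (log2 0.47, 95% interval -0.13 to 1.06, limma adjusted p = 0.556), and the log2 difference was 0.32 to 0.59 with single libraries left out. The AP cluster 9 was the 1 cluster with a lower mean at RT, 2.11% ± 0.70 (SD, n = 4) against 2.21% ± 0.20 (n = 4). Over the 9 clusters the 95% intervals reached from a ratio of 0.615 to 2.08. For this measure too limma gave every cluster the same SE, 0.295 on the log2 scale.

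**Figure D5:**
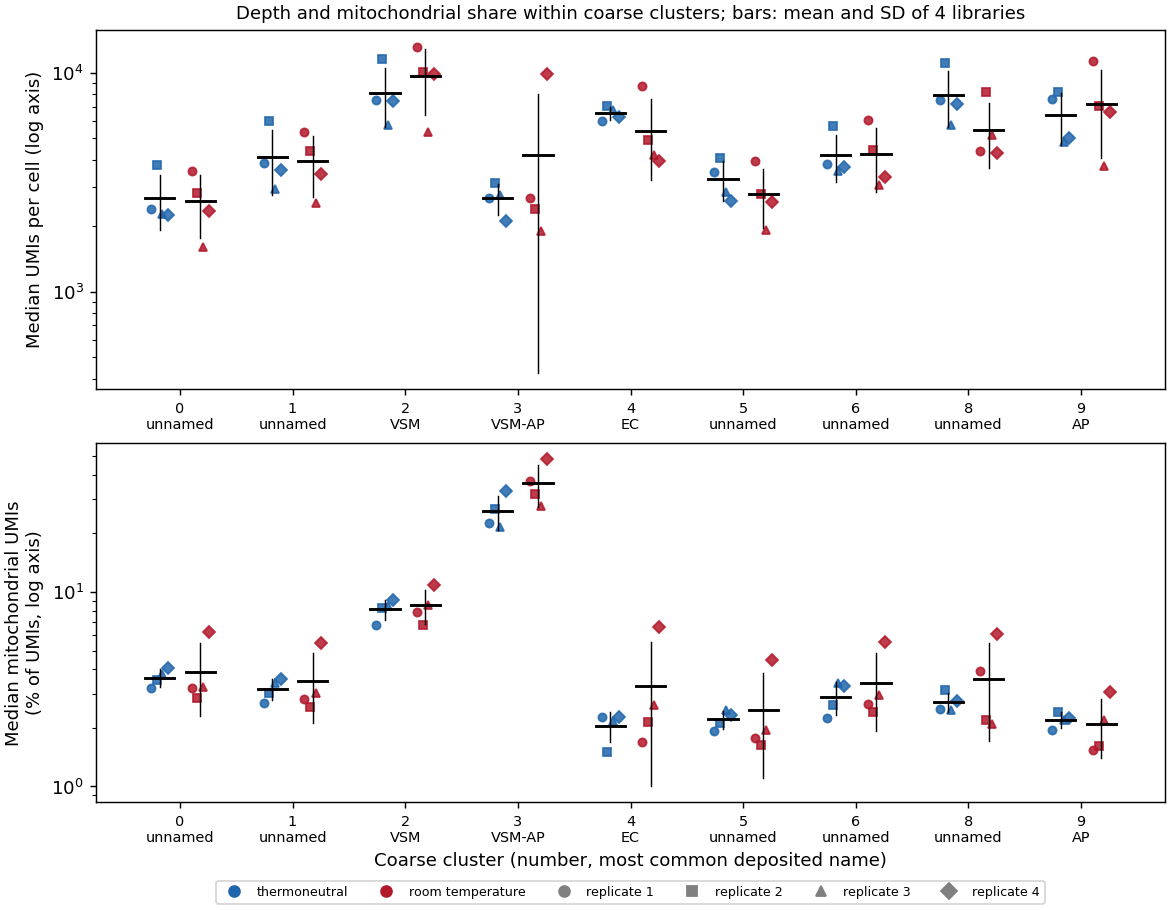
Median UMIs per cell (upper panel, log axis) and median mitochondrial share of UMIs in percent (lower panel, log axis) of each library in the 9 coarse clusters tested; symbols are libraries, bars are the mean and SD of 4 libraries. Room temperature replicate 4 is the highest library for the mitochondrial share in all 9 clusters and has 9811.5 UMIs in the VSM-AP cluster 3.

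Cluster shares were read only as a background to the values above. In limma, 0 of the 18 coarse clusters that averaged 10 cells or more in a library passed, with 1 at an unadjusted p below 0.05. The count in edgeR was 0 as well. The exception was the Schwann-labelled cluster 16, with 0.281%, 0.300%, 1.23% and 0.755% of the cells at RT and 0.640%, 0.0583%, 0.0600% and 0.0501% at TN. TN replicate 1 lay among the RT libraries, and the log2 odds ratio of 2.18 did not pass (limma adjusted p = 0.208). It was 0.35 within replicates 1 and 2 and 4.00 among replicates 3 and 4. Without TN replicate 1 or without RT replicate 1, 1 cluster passed. Cluster 11 had the smallest p of the lower ones, with a log2 odds ratio of -0.84 (limma adjusted p = 0.944). In the 3 largest clusters, 0, 2 and 1, the log2 odds ratios were 0.23, -0.02 and -0.11, and for cluster 2 it was 1.17 within replicates 1 and 2 and -1.21 among replicates 3 and 4.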

How the data were processed

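Library preparation used the 3' v3 droplet kit of 10x Genomics, per the labels' protocols, and per the submitters' processing notes reads were counted with Cell Ranger 3.0.1 and STAR against mm10. The sources used here do not give the filters, integration, clustering or phase scoring, and the lowest deposited cell has 800 UMIs and 400 genes. The authors deposited UMI and gene counts per cell without normalisation, log10 genes over log10 UMIs as a ratio, the mitochondrial fraction (given here in percent), S and G2M scores, phase calls and cluster labels. No gene values were analysed, so no doublets were called and no thinning to equal UMIs was done.

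One value per library and cluster was computed: the log2 of the median UMI count, the median genes per UMI ratio, the mean residual of log2 genes on a quadratic in log2 UMIs, the log2 of the median mitochondrial percent plus 0.1, the mean S and G2M scores, and the log2 odds of a call of S or G2M with 0.5 cells added to each side. RT and TN were compared with limma 3.58.1 (R 4.3.3) on the 8 libraries without a block, in clusters with at least 20 cells in every library, with Benjamini-Hochberg adjustment within each of 15 families and a threshold of 0.05. Cluster shares were tested likewise, with edgeR 4.0.16 on cell counts as an alternative. Values over all cells were compared by exact two-sided permutation over 70 assignments. Errors are SE for differences and SD for groups. The limma step was tested on simulated data in which clusters were drawn independently. That test does not cover clusters that share libraries, as they do here. The text names clusters that pass, that have the smallest p in a direction where none passes, whose groups do not overlap, or that hold most cells. The comparison, the measures and the cluster lists were chosen with earlier results of these data known. Values of all libraries mapped to a group were used, and cold libraries only for context.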

Additional observations from a re-analysis of the deposited data

Results flagged for a closer look

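In each group of 4 libraries, a value was picked out when its gap to the nearest library took most of the range of the group (Dixon's 95% criterion). Of 182 sets of 4 values, 14 met this, where chance gives about 1 in 20.

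RT replicate 4 accounted for 6 of them. Its median mitochondrial share was 6.01% over all cells, against 3.05% to 3.48% in the other RT libraries, 6.23% in coarse cluster 0, 5.50% in cluster 1 and 4.48% in cluster 5. Its cells of the VSM-AP cluster 3 had a median of 9811.5 UMIs, and its genes at equal UMIs in the AP cluster 9 were -0.11 on the log2 scale, against -0.00089 to 0.012 in the other RT libraries.

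TN replicate 2, the library with the fewest cells, had 4. Its median UMI counts were 3777 in cluster 0 and 5695 in cluster 6, both above the other TN libraries, and in the EC and ECAP cluster 4 its genes per UMI ratio was 0.878 and its mitochondrial share 1.50%, both below them. TN replicate 1 had 3: in cluster 4 a G2M score of -0.0320, above the other TN libraries, and a share called S or G2M of 24.4%, below them, and in cluster 6 an S score of 0.0253, against 0.0369 to 0.0383 in the others. RT replicate 3 had a share called S or G2M of 71.9% in VSM_0, against 63.0% to 63.2% in the other RT libraries.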

How the results depend on the processing

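All 9 S score differences of the coarse clusters were above 0 within both pairs of replicate numbers. With all 15 families adjusted together the S score passed in 4 clusters and the share called S or G2M in 1. Centring each library on its mean over clusters gave 0 for the S score and 0 for the share called, 1 for the mitochondrial share and 1 for the share called in named clusters. Centring takes out any shift that the clusters share, so differences on both sides of 0 follow by construction. Of the S score differences that had passed, those of clusters 0 and 5 turned to -0.00169 and -0.00170. S score differences that had not passed are not listed here. UMIs in cluster 1 turned to 0.0019 and the genes per UMI ratio in VSM_0 to 0.0013. Genes at equal UMIs in clusters 0, 1, 2, VSM_0 and VSM_1 turned to 0.035, 0.036, 0.023, 0.027 and 0.029. The mitochondrial share in clusters 0, 1, 2, VSM_0 and VSM_1 turned to -0.13, -0.086, -0.11, -0.029 and -0.067. The share called in VSM_0 turned to -0.080.

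Among cells with 2000 to 4000 UMIs, 1 of 2 clusters passed for the S score and 2 of 2 for the share called. UMIs in cluster 0 and over all cells turned to 0.063 and 0.012, genes at equal UMIs in clusters 0 and 5 to 0.0011 and -0.0058, and the ratio in cluster 0 to -0.00066. Above the highest library minimum of UMIs, UMIs in cluster 0 and over all cells turned to 0.072 and 0.13 and the ratio in cluster 0 to -0.0011. Under 20% mitochondrial UMIs, the ratio over all cells turned to 0.000058. Over named cells alone, UMIs turned to 0.18. The scores and calls over these cells were those of the table of named cells. With them the G2M score turned to -0.0019, the S score to -0.0013 and the log2 odds of a call to -0.15. The cells and the source of the scores thus changed together, and their parts were not tested apart. With coarse clusters weighted equally, the S score difference was 0.0188 and that of the log2 odds of a call 0.64, both with an exact permutation p of 0.0286.

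A minimum of 10 cells gave 1 call of 7 tested for the G2M score of named clusters. It gave 1 of 12 for the share called in coarse clusters. A minimum of 5 gave 1 of 14 for the latter and 5 of 14 for the S score of coarse clusters. A minimum of 50 gave 1 of 6 for the G2M score of coarse clusters. With 20 cells in at least 3 libraries of each group, the S score passed in 10 of 12 coarse clusters. In named clusters it passed in 2 of 12, both lower at RT. With the scores of all cells it passed in 8 of 12 named clusters, against 3 of 3 with the stricter minimum. With those scores the G2M difference in VSM-AP_6 turned to 0.0039 and the log2 odds to 0.15 under both minimums. At resolution 1.8, 13 of 14 clusters passed for the S score (92.9%), 4 of 14 for the share called (28.6%) and 1 of 14 for the G2M score (7.14%). With the pairs of numbers as a covariate, 2 clusters passed for the G2M score and 1 named cluster for the S score. Weighting by cell number gave 2 for the G2M score, and turned UMIs in cluster 1 to 0.070, genes at equal UMIs in cluster 5 to -0.00014, the ratio in cluster 1 to -0.0031 and the mitochondrial share in clusters 0, 1, 2, VSM_0 and VSM_1 to -0.081, -0.058, -0.056, -0.032 and -0.094. With edgeR the share of cluster 2 turned to 0.10. The cause of these changes was not tested.

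The labels do not say that a replicate number marks a shared animal, day or batch, and the libraries were not treated as pairs. Correlations of deviations from the group means were -0.122, 0.341, 0.325 and 0.310 for numbers 1 to 4. Of the 8 libraries, 5 correlated best with the library of their own number: RT replicates 2, 3 and 4 and TN replicates 3 and 4. The highest correlation of an RT with a TN library, 0.556, was between unlike numbers, RT replicate 1 and TN replicate 2. Whether the numbers mark pairs was not tested. With the replicate number as a block, 8 coarse clusters passed for the S score and 5 for the share called, with 1 each for cluster shares, for genes at equal UMIs and for the share called in named clusters. Over all cells, sign flips of the same-numbered pairs gave 0.125 for the S score, the smallest p they allow.

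With single libraries left out, calls numbered 5 to 9 for the S score, 1 to 3 for the share called, and 0 to 1 each for the G2M score, cluster shares and genes at equal UMIs. Over all cells the differences ran from -0.0021 to 0.0055 for the G2M score, -0.38 to 0.25 for UMIs, -0.0049 to 0.0031 for the ratio and -0.11 to 0.22 for the mitochondrial share. For UMIs they ran from -0.24 to 0.14 in cluster 0, -0.24 to 0.14 in cluster 1 and -0.21 to 0.59 in cluster 3. For cluster shares they ran from -0.10 to 0.55 (cluster 0), -0.49 to 0.54 (1), -0.41 to 0.51 (2) and -1.43 to 0.10 (11). For genes at equal UMIs they ran from -0.020 to 0.0095 (0), -0.020 to 0.019 (1) and -0.017 to 0.018 (5), and for the ratio from -0.0024 to 0.0037 (0) and -0.0011 to 0.0047 (1). For the mitochondrial share they ran from -0.22 to 0.14 (0), -0.17 to 0.19 (1), -0.069 to 0.15 (2), -0.30 to 0.014 (9), -0.065 to 0.14 (VSM_0) and -0.11 to 0.093 (VSM_1). The G2M score ran from -0.0014 to 0.0013 in VSM-AP_6 and -0.00019 to 0.0057 in VSM_1, and the log2 odds of a call from -0.037 to 0.22 in VSM_0. Precision is limited by 4 libraries a group and by clusters of as few as 24 cells in a library.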

Other observations

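In some of the coarse clusters with too few cells in a library to be tested, the S score was also read, with no test. Clusters 7 (1121 cells), 15 (315 cells) and 16 (244 cells) were untested as well and are not listed here. In the unnamed cluster 10 (600 cells) the RT libraries had mean S scores of 0.0467, 0.0354, 0.0257 and 0.0363 and the TN libraries -0.00482, 0.00499, 0.0169 and 0.00897. All RT libraries lay above all TN libraries, but RT replicate 1 had 4 cells and TN replicate 2 had 7. In the unnamed cluster 11 (503 cells) the means were 0.0406 ± 0.0121 (SD, n = 4) at RT and 0.0162 ± 0.0104 (n = 4) at TN, with a single cell in RT replicate 1. The Pericyte-labelled cluster 12, named for cells that wrap capillaries, had -0.0230 ± 0.0084 and -0.0365 ± 0.0186, and the groups overlapped. The Schwann-labelled cluster 14, named for the sheath cells of nerves, had -0.0562 ± 0.0103 and -0.0706 ± 0.0068, and there too they overlapped. In cluster 13, which has no named cell, the means were -0.0476 ± 0.0062 and -0.0549 ± 0.0164.

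The Lymph_EC-labelled cluster 17, named for lymphatic endothelium, had S scores of -0.0466, -0.0367, -0.0177 and 0.00814 at RT and -0.0594, -0.0726, -0.0404 and -0.0424 at TN, from 3 to 55 cells per library. RT replicates 3 and 4 lay above the rest. In cluster 18, with 28 cells in all, the mean was -0.0418 ± 0.0094 at RT and 0.00801 ± 0.152 at TN, where 2 cells of TN replicate 1 averaged 0.236.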
